A study of Mus musculus with 6 samples.

Results

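The secretory airway cell genes are 9 genes, Scgb1a1, Scgb3a1, Scgb3a2, Cyp2f2, Pon1, Bpifa1, Cbr2, Muc5b and Agr2, that were taken by name. Every probe set annotated to exactly 1 of these genes was used, which gave 10 probe sets of the 45037 tested and 9 of 18193 genes measured. Agr2 had 2 probe sets and each other gene had 1. The lungs were microdissected whole from mouse embryos at embryonic stage E16.5 and fell into Hopx -/- embryos (Hopx-null, 3 lungs) and Hopx +/+ embryos (wild-type, 3 lungs), both on a mixed strain background, with 1 array per lung. Hopx encodes a small homeodomain protein without DNA binding of its own, and the sources used here do not say how its null allele was made. The lungs are described as biological replicates. Values are log2 expression values, on which a difference of 1 is a factor of 2.

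Secretory cells line the conducting airways of the lung between the ciliated cells. Club cells, the secretory cells of the bronchioles, release small secretoglobins and carry enzymes that metabolise inhaled chemicals. Goblet cells and the cells of the submucosal glands, which in mice lie mainly in the trachea and the largest airways, release gel-forming mucins and antimicrobial proteins. Notch signalling directs airway progenitors towards the secretory fate, and the first secretory genes switch on before birth. In whole-lung RNA, fewer cells of a type and less RNA per cell cannot be told apart.

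As a check of the labels, both probe sets of Hopx were lower in Hopx-null lungs, where they averaged 10.49 and 4.71, against 12.40 and 10.65 in wild-type lungs (limma eBayes, Benjamini-Hochberg adjusted p = 0.0228 and 0.000375). Lung was checked with 9 identity markers, Nkx2-1, Sftpc, Foxf1, Tbx4, Tbx5, Epcam, Cdh5, Col1a1 and Wnt2, and all 9 lay above the median level of the arrays. The mean of the Y-linked probe sets was between 2.56 and 2.60 in the Hopx-null lungs, 2.62 in wild-type replicate 1, and 6.67 and 6.69 in wild-type replicates 2 and 3. Sex-linked signal thus differed among wild-type lungs and between the genotypes. Hopx-null replicate 3 had the largest difference between 3' and 5' actin control probe sets, 1.51, against 1.15 to 1.25 in the other 5 lungs.

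The promoters below, 250 bases before to 50 bases after the annotated start from RefSeq (GRCm38.p6), belong to Agr2, Scgb3a1 and Bpifa1, whose values varied together between lungs, and to Cyp2f2, whose values hardly varied. The search covered 6 of the 9 genes. No window was available for Scgb1a1 and Muc5b, and Scgb3a2 was left out by a filter on its chromosome. The Agr2 window is chr12:35992675-35992974, plus strand, that of Scgb3a1 is chr11:49663345-49663644, plus strand, that of Bpifa1 is chr2:154142630-154142929, plus strand, and that of Cyp2f2 is chr7:27119705-27120004, plus strand. Capitals mark matches, on either strand, to TGTTTAC (FOXA), CAAGTG (NKX2 family), TTGCNNAA (C/EBP), ACAAAG or ACAATG (SOX) and GTGGGAA (RBPJ, the DNA-binding partner of Notch).
Agr2: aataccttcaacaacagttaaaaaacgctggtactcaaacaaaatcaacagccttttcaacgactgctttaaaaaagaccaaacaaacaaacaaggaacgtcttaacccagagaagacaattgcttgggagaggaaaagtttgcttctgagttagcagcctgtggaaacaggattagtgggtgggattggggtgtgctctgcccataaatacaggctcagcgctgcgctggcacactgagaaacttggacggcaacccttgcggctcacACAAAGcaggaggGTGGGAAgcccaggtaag
Scgb3a1: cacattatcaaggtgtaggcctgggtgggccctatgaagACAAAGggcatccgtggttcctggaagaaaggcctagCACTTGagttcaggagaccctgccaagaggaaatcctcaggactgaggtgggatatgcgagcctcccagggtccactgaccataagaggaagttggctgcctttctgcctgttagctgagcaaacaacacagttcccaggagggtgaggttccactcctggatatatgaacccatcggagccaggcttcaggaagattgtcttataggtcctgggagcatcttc
Bpifa1: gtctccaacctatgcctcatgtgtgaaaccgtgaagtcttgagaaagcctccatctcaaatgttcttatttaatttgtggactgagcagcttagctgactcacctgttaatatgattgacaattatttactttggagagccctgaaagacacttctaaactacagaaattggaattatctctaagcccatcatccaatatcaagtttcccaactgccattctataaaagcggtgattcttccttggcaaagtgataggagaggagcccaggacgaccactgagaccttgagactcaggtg
Cyp2f2: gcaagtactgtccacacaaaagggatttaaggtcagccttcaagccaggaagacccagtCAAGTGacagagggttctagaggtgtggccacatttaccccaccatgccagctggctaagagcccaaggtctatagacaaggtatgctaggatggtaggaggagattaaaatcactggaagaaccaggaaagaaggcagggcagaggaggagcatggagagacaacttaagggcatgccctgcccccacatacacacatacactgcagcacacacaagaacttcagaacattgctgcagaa
The Agr2 window held ACAAAG, which 18.7% of all 32851 promoter windows held, and GTGGGAA, which 6.38% held, both after the start. The Scgb3a1 window held ACAAAG and CAAGTG, and the Cyp2f2 window held CAAGTG, which 13.6% of all windows held. None of these motifs was found in the Bpifa1 window. Pon1, which ranged over 0.88 between the 6 lungs, also held ACAAAG, which was thus in 3 of the 6. Among the 6 genes Pon1 alone held TTGCNNAA, which 10.8% of windows held, while TGTTTAC (3.65%) and ACAATG (12.6%) were in none. Looser forms, not in capitals, were TGTTTNC in 4 of the 6 (20.5% of all windows), CAAGNG in 4 (46.1%) and TTNNGNAA in 3 (40.7%). Agr2, Scgb3a1 and Bpifa1 thus had none of these motifs in common in this window.

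No secretory airway gene passed the test between genotypes. Of the 10 probe sets, 0 were called in limma (eBayes, Benjamini-Hochberg over all probe sets, adjusted p threshold 0.05), where 0.00444% of all probe sets, the 2 of Hopx, were called. At an unadjusted p under 0.05 there were also 0 of the 10, against 2149 of all 45037. The groups overlapped at all 10, whereas they did not overlap at 10.1% of all probe sets (5.6% with Hopx-null lungs higher and 4.54% with Hopx-null lungs lower). With 1 probe set a gene, 2 genes had a higher and 7 a lower mean in Hopx-null lungs, and the median difference was -0.38, beside a median of 0.01 over all probe sets. That median rested on single lungs. Leaving out wild-type replicate 2 gave -0.01, leaving out Hopx-null replicate 2 gave -0.06 and leaving out wild-type replicate 3 gave -0.18, while it lay between -0.41 and -0.29 with any other lung left out. With Y-linked signal as a covariate, which in effect sets the Hopx-null lungs against wild-type replicate 1, the median was 0.14, and the differences of Scgb3a1, Bpifa1, Muc5b and Agr2 also turned positive.

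The 9 genes divided by how far the 6 lungs lay apart. Scgb3a1, Bpifa1, Muc5b and Agr2 each ranged over more than 1 log2 unit between the highest and lowest lung, with ranges from 3.47 to 5.82. Scgb1a1, Scgb3a2, Cyp2f2, Cbr2 and Pon1 ranged over 0.09 to 0.88. A range above 1 was found at 8.17% of all probe sets. Because the division was made on these values, it is a description.

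**Figure D1:**
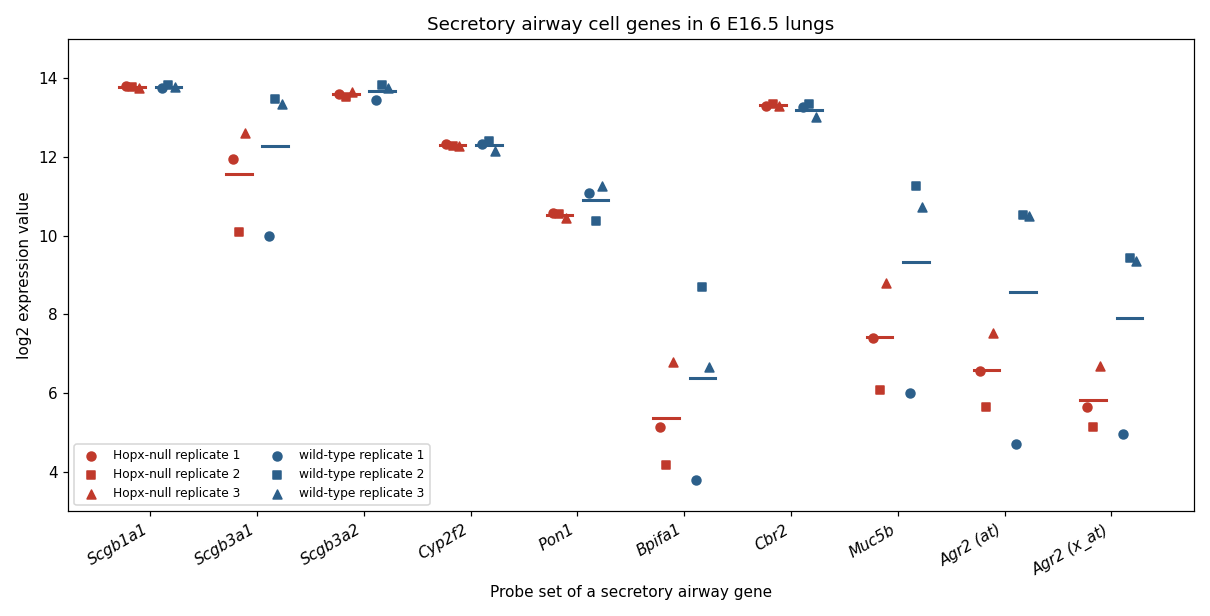
Log2 expression value (vertical axis) of each of the 10 probe sets (horizontal axis) in 3 Hopx-null lungs (red, left) and 3 wild-type lungs (blue, right); marker shapes give the replicate number and short bars the group mean. Scgb1a1, Scgb3a2, Cyp2f2 and Cbr2 sit in tight clusters, whereas Scgb3a1, Bpifa1, Muc5b and Agr2 spread over 3.47 to 5.82 log2 units, with wild-type replicate 1 lowest in all 4.

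Among the secretoglobins, Scgb1a1 encodes CC10, the major secreted protein of club cells. Its probe set read 13.79, 13.78 and 13.74 in Hopx-null replicates 1 to 3, against 13.75, 13.83 and 13.78 in wild-type replicates 1 to 3. All 6 lungs lay within 0.09 of each other and the groups overlapped. The difference was -0.02 (95% interval -0.20 to 0.17, SE 0.08; limma eBayes, Benjamini-Hochberg adjusted p = 0.979). Signal this close to the top of the arrays, where the highest value of any probe set was 14.27, can be compressed, and the part of compression in the small spread was not tested.

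Scgb3a2 encodes a secretoglobin of the bronchiolar epithelium that is found early in the developing mouse airway and is controlled there by Nkx2-1. It read 13.60, 13.52 and 13.65 in Hopx-null lungs, against 13.46, 13.84 and 13.75 in wild-type lungs. The 2 highest lungs were wild-type replicates 2 and 3 and the lowest was wild-type replicate 1, so the Hopx-null lungs lay inside the wild-type range. The difference was -0.09 (95% interval -0.37 to 0.19; limma eBayes, Benjamini-Hochberg adjusted p = 0.916).

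Scgb3a1 encodes a secretoglobin made mainly in the trachea and large bronchi. It read 11.96, 10.10 and 12.61 in Hopx-null lungs, against 10.0016, 13.47 and 13.35 in wild-type lungs. The wild-type lungs held both the highest values and the lowest, and their range enclosed all 3 Hopx-null lungs. The means were 11.56 ± 1.30 in Hopx-null lungs and 12.27 ± 1.97 in wild-type lungs (SD, n = 3 each), a difference of -0.72 (95% interval -3.23 to 1.79; limma eBayes, Benjamini-Hochberg adjusted p = 0.925). Leaving out Hopx-null replicate 2 gave a difference of 0.01, and leaving out wild-type replicate 1 gave -1.86. The Y-linked covariate gave 1.59. Scgb3a1 and Scgb3a2 placed the 6 lungs in the same order, over ranges of 3.47 and 0.38. Scgb3a2 also lay near the top of the arrays, and the part of compression in its range was not tested.

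The enzymes of the club cell varied little. Cyp2f2, a cytochrome P450 that activates naphthalene in club cells, read 12.33, 12.29 and 12.28 in Hopx-null lungs, against 12.32, 12.41 and 12.16 in wild-type lungs. Its Hopx-null lungs lay within 0.05 of each other and inside the wild-type range, and the difference was 0.00 (95% interval -0.22 to 0.23; limma eBayes, Benjamini-Hochberg adjusted p = 0.998). Cbr2, a carbonyl reductase abundant in mouse lung, read 13.29, 13.35 and 13.29 in Hopx-null lungs, against 13.27, 13.34 and 13.01 in wild-type lungs. Wild-type replicate 3 was the lowest for both enzymes. The difference for Cbr2 was 0.11 (95% interval -0.15 to 0.37; limma eBayes, Benjamini-Hochberg adjusted p = 0.898), and it was 0.01 without wild-type replicate 3.

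Pon1 encodes paraoxonase, an esterase best known from liver and serum lipoproteins. It read 10.58, 10.56 and 10.44 in Hopx-null lungs, against 11.09, 10.37 and 11.25 in wild-type lungs. The 3 Hopx-null lungs were close together, 2 wild-type lungs lay above them and wild-type replicate 2 lay below. The difference was -0.38 (95% interval -0.91 to 0.15; limma eBayes, Benjamini-Hochberg adjusted p = 0.878), and it was -0.65 when wild-type replicate 2 was left out and -0.21 when wild-type replicate 3 was. Pon1 was the only member that was lowest in wild-type replicate 2, the lung that was highest for 7 of the 9 genes.

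The gel-forming mucin Muc5b, the main mucin of mouse airways, read 7.41, 6.08 and 8.81 in Hopx-null lungs, against 6.01, 11.26 and 10.72 in wild-type lungs. Wild-type replicates 2 and 3 were highest, and wild-type replicate 1 lay just under the lowest Hopx-null lung. The means were 7.43 ± 1.37 in Hopx-null lungs and 9.33 ± 2.89 in wild-type lungs (SD, n = 3 each). The difference of -1.90 (SE 1.42, 95% interval -5.29 to 1.496) did not pass (limma eBayes, Benjamini-Hochberg adjusted p = 0.879). Leaving out wild-type replicate 1 gave -3.56 and leaving out wild-type replicate 2 gave -0.93, and neither passed. With the Y-linked covariate the difference was 1.47.

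Agr2 encodes a protein disulphide isomerase of the endoplasmic reticulum needed for making mucins. Its first probe set read 6.57, 5.64 and 7.53 in Hopx-null lungs, against 4.71, 10.53 and 10.49 in wild-type lungs. The second read 5.64, 5.13 and 6.70 in Hopx-null lungs, against 4.96, 9.44 and 9.36 in wild-type lungs. Both placed the 6 lungs in the same order as Muc5b. The differences were -2.00 (95% interval -5.69 to 1.70) and -2.09 (95% interval -4.95 to 0.76), with adjusted p = 0.879 and 0.878 (limma eBayes, Benjamini-Hochberg). Without wild-type replicate 1 they were -3.93 and -3.57, and without wild-type replicate 2 they were -1.02 and -1.33. With the Y-linked covariate they were 1.93 and 0.91.

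Bpifa1 encodes SPLUNC1, a secreted host-defence protein of the nasal, tracheal and large-airway epithelium. It read 5.14, 4.18 and 6.78 in Hopx-null lungs, against 3.80, 8.71 and 6.67 in wild-type lungs. The lowest lung of each genotype read below the lower quartile of its array (4.24 to 4.30 over the 6 arrays), where signal is close to background. Unlike for Muc5b and Agr2, Hopx-null replicate 3 was above wild-type replicate 3. The difference was -1.03 (95% interval -3.998 to 1.95; limma eBayes, Benjamini-Hochberg adjusted p = 0.91), while leaving out wild-type replicate 2 gave 0.13 and leaving out wild-type replicate 1 gave -2.32. The Y-linked covariate gave 1.60.

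**Figure D2:**
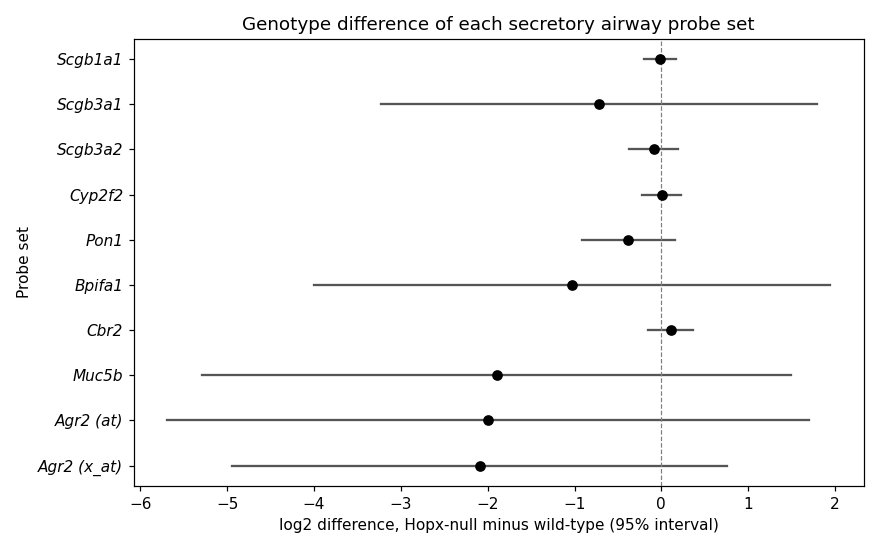
Log2 difference, Hopx-null minus wild-type, of each probe set (points) with its 95% interval from limma (bars); the dashed line is at 0. All 10 intervals include 0, and those of Scgb1a1, Cyp2f2, Cbr2 and Scgb3a2 lie between -0.373 and 0.367 while those of Muc5b and Agr2 reach below -4.9.

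The spread between lungs of 1 genotype was measured as the pooled SD within genotype and set beside probe sets with a mean level within 0.5. For Scgb3a1 this SD was 1.67, and 0 of 1797 probe sets of like level had a larger one. It was 2.46 for the first Agr2 probe set, larger than at all but 1 of 4833. It was 2.26 for Muc5b and 1.98 for Bpifa1, where 3 of 4927 and 3 of 4727 were larger. The median over all probe sets was 0.16. The pooled SD of Scgb1a1 was 0.03, larger than at 47.7% of probe sets of like level, and that of Cyp2f2 was 0.09, larger than at 60.4%. Pon1 with 0.33, Scgb3a2 with 0.15 and Cbr2 with 0.13 exceeded 96.3%, 97.8% and 92.1% of theirs. The SD was smaller among Hopx-null than among wild-type lungs for all 9 genes, for example 0.95 against 3.35 for Agr2 and 0.07 against 0.47 for Pon1. With 3 lungs a group this is given without a test. The share of all probe sets with that direction was not computed, and genes of the other lists went both ways. It is therefore not shown to be particular to these 9 genes. Y-linked signal was low in all 3 Hopx-null lungs and in wild-type replicate 1, but high in wild-type replicates 2 and 3. The part of that split in the wild-type SDs was not tested.

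**Figure D3:**
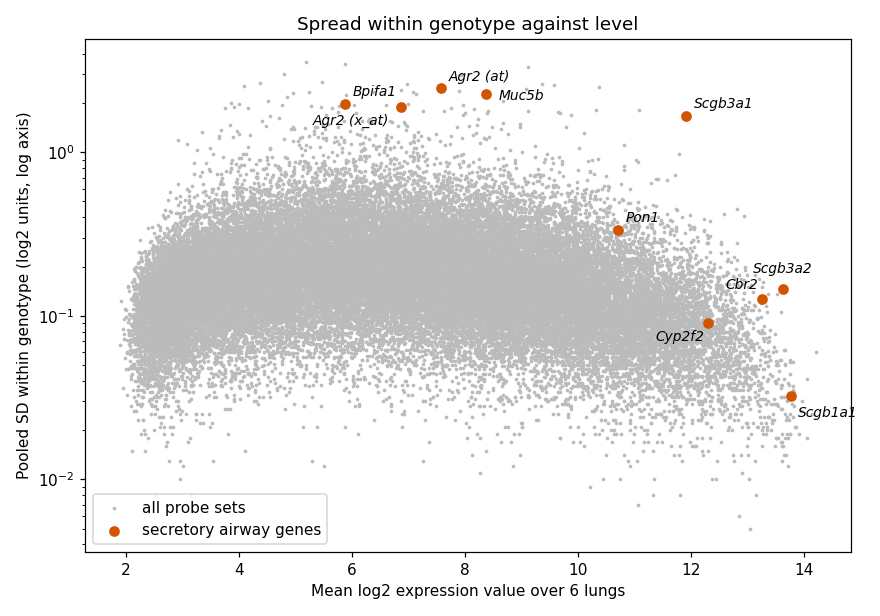
Pooled SD within genotype (log2 units, logarithmic vertical axis) against mean log2 value over the 6 lungs for all 45037 probe sets (grey) and the 10 secretory airway probe sets (orange, labelled). Scgb3a1, Bpifa1, Muc5b and Agr2 lie at the upper edge of the cloud, while Scgb1a1 at 0.03 and Cyp2f2 at 0.09 lie within it.

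The 4 widely varying genes were high and low in the same lungs. Wild-type replicate 1 was lowest and Hopx-null replicate 2 second lowest for all 4, and wild-type replicate 2 was highest for all 4. Among these 4, Muc5b and Agr2 had the closest profiles, with a root mean square distance between their centred values of 0.40 over the 6 lungs. Scgb3a1 and Bpifa1 were 0.67 apart, while Agr2 was 2.23 from Scgb1a1, one of the other 5. Some narrow profiles among those 5 lay closer still, such as Scgb1a1 and Cyp2f2 at 0.07. The distance is not scaled to the range of a gene. A wide and a narrow profile therefore lie far apart whatever their order of lungs. Scgb3a2, with the same order of lungs as Agr2, was 2.12 from it. The exact order of lungs seen for Agr2 was shared by Muc5b, Scgb3a1 and Scgb3a2, and was found at 0.16% of all probe sets. That order was picked after the values were seen.

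Among genes outside the 9 with a mean above the median and at least 0.5 times the range of the member, the profiles nearest to Muc5b were those of Col2a1 at a distance of 0.33, Col9a1 at 0.38, Reg3g at 0.81, Acan at 0.86 and Bloc1s6 at 1.503. For Agr2 they were Col2a1 (0.39), Col9a1 (0.52), Reg3g (0.93), Acan (1.02) and Tmem87a (1.65). For Scgb3a1 they were Acan (0.64), Col2a1 (0.72), Col9a1 (0.74), Cytl1 (0.79) and Oit1 (0.84), and for Bpifa1 they were Col2a1 (0.84), Col9a1 (0.89), Acan (0.92), Lsm8 (1.37) and Reg3g (1.41). Col2a1, Col9a1 and Acan encode collagens and the main proteoglycan of cartilage, and Reg3g encodes a secreted antibacterial lectin. These distances cover 6 lungs and between 53 and 226 candidate probe sets.

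Cartilage rings surround the trachea and main bronchi, so the cartilage values stand here beside those of the secretory genes. Col2a1, the type II collagen of cartilage, read 6.70, 4.98 and 7.38 in Hopx-null lungs, against 4.48, 9.57 and 9.67 in wild-type lungs. Reg3g read 8.52, 5.42 and 9.59 in Hopx-null lungs, against 7.42, 12.63 and 12.66 in wild-type lungs. Both were highest in wild-type replicates 2 and 3, as were Agr2 and Muc5b. Col2a1 and Reg3g were picked for profiles near those of Agr2 and Muc5b, so the shared highest lungs follow from that choice. Over 16 cartilage markers, the mean level of a lung was 5.66 to 6.38 in Hopx-null lungs and 5.59 to 7.49 in wild-type lungs. Of the 16, 12 were highest in wild-type replicates 2 and 3, as were 6.37% of all probe sets. These include Col2a1, Col9a1 and Acan, which were picked for near profiles. Hapln1, Matn1, Matn4 and Sox9 were not highest there. Hapln1 was lowest in wild-type replicate 2, and Matn4 averaged 6.85 in Hopx-null lungs against 6.42 in wild-type lungs, without overlap. Of the 16 markers, 6 had a mean above the median of the arrays. Wild-type replicates 2 and 3 also carried the Y-linked signal. The parts of airway cartilage in the sample and of sex in the values of Scgb3a1, Bpifa1, Muc5b and Agr2 were not tested.

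**Figure D4:**
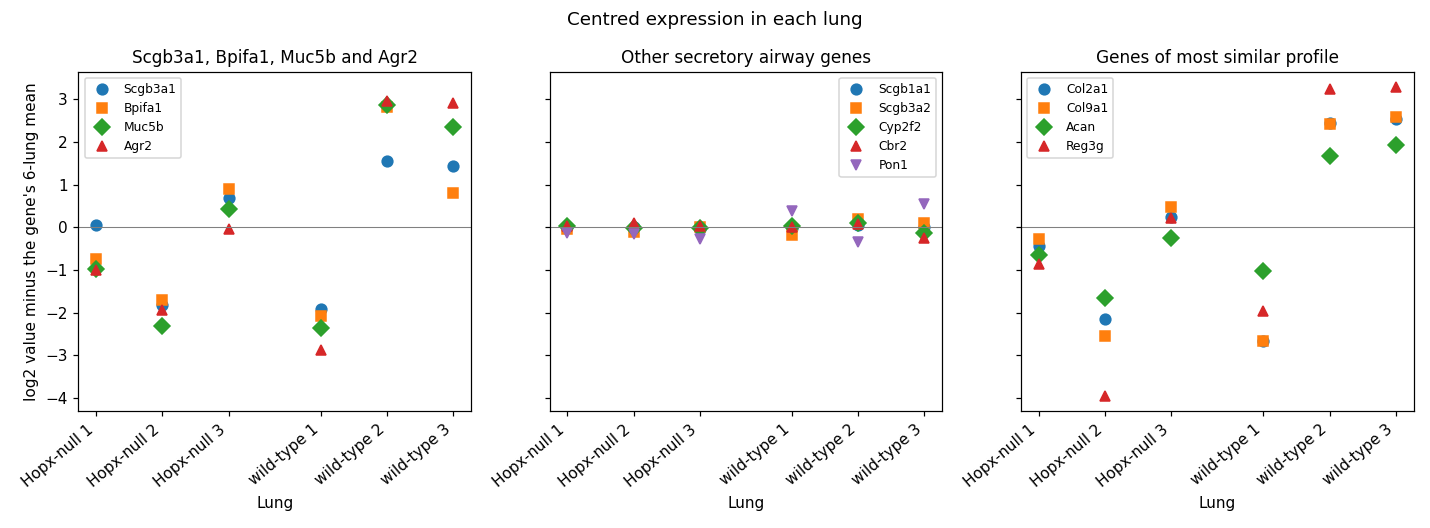
Log2 value minus the gene's own 6-lung mean (vertical axis) in each lung (horizontal axis, Hopx-null left of wild-type) for Scgb3a1, Bpifa1, Muc5b and Agr2 (left), the other 5 secretory airway genes (centre) and Col2a1, Col9a1, Acan and Reg3g, from among the genes nearest in profile (right). The left and right panels are both highest in wild-type replicate 2 or 3, and the centre panel stays within 0.54 of 0 in every lung.

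Further genes of the airway epithelium came from companion lists, of which no gene passed in any (limma eBayes, Benjamini-Hochberg, adjusted p of at least 0.878). Of 18 other secreted airway products, 7 had higher and 11 lower means in Hopx-null lungs, with a median difference of -0.06. The mucin Muc4 differed by 0.41 (SE 0.24) and lactoferrin, Ltf, by 0.39 (SE 0.36). Of 21 genes of xenobiotic metabolism, 6 were higher and 15 lower with a median of -0.10, and Cyp1b1 differed by -0.62 (SE 0.32) and the glutathione transferase Gsto1 by -0.30 (SE 0.17). Of 16 other club and goblet cell markers, 6 were higher and 10 lower with a median of -0.04, and the keratin gene Krt15 differed by -0.41 (SE 0.24) and Agr3, a paralogue of Agr2, by 0.32 (SE 0.32). A range above 1 between lungs was found for 7 of the 18 secreted products, 2 of the 21 xenobiotic genes and 4 of the 16 other markers. The groups did not overlap for 1 of the 18, 2 of the 21 and 3 of the 16. All of these were lower in Hopx-null lungs, a pattern that 4.54% of all probe sets had.

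Of 27 regulators of airway secretory cells, among them Notch receptors and ligands, 7 had higher and 20 lower means in Hopx-null lungs, with a median of -0.11. Sox2, the transcription factor of the conducting airway lineage, read 8.57, 7.95 and 8.02 in Hopx-null lungs, against 8.49, 9.25 and 9.10 in wild-type lungs, a difference of -0.77 (SE 0.25; limma eBayes, Benjamini-Hochberg adjusted p = 0.878). Ehf, an epithelial ETS factor, read 8.28, 7.92 and 7.89 in Hopx-null lungs, against 8.17, 8.99 and 8.97 in wild-type lungs, a difference of -0.68 (SE 0.24). For both, wild-type replicates 2 and 3 were highest and wild-type replicate 1 lay among the Hopx-null lungs. In all, 10 of the 27 regulators were highest in wild-type replicates 2 and 3, against 4 of the 9 secretory airway genes. The groups did not overlap for 4 regulators, all lower in Hopx-null lungs, where 4.54% of all probe sets had that pattern. These were Foxa1 (-0.19), Klf5 (-0.26), Nkx2-1 (-0.23) and Spdef (-0.16), and none passed (limma eBayes, Benjamini-Hochberg adjusted p = 0.878 each); Foxa1, Klf5 and Spdef are named after their values were seen. Nkx2-1, the transcription factor of lung epithelial identity, read 7.62, 7.38 and 7.71 in Hopx-null lungs, against 7.77, 7.81 and 7.82 in wild-type lungs.

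Other cell types of the airway lining are given by their markers. Of 18 multiciliated cell markers, 4 were higher and 14 lower with a median of -0.08, and 0 ranged over more than 1. The dynein genes Dnah11 and Dnaic1 differed by 0.37 (SE 0.12) and -0.31 (SE 0.17). Dnah11 was the 1 of the 18 without overlap between the groups, where 10.1% of all probe sets did not overlap. It did not pass (limma eBayes, Benjamini-Hochberg adjusted p = 0.878). Of 10 neuroendocrine markers, 4 were higher and 6 lower with a median of -0.03, and 2 had a mean above the median of the arrays. Of these 2, gastrin-releasing peptide, Grp, read 7.88, 8.79 and 8.68 in Hopx-null lungs, against 7.85, 7.15 and 7.18 in wild-type lungs, and Uchl1 differed by -0.40 (SE 0.21). Grp did not overlap between the groups, nor did Syp, higher by 0.24 in Hopx-null lungs, and Chga, lower at -0.57, where 10.1% of all probe sets did not overlap. None of these passed (limma eBayes, Benjamini-Hochberg adjusted p = 0.878 each). Of 13 basal and squamous markers, 6 were higher and 7 lower with a median of -0.03, and 2 lay above the median of the arrays. Of these 2, Perp differed by -0.29 (SE 0.18) and Sbsn by 0.11 (SE 0.17). Below that level, Sprr1a, a cornified envelope protein of squamous cells, had the largest difference of the list, -1.40 (SE 0.37; limma eBayes, Benjamini-Hochberg adjusted p = 0.878), without overlap. Syp, Chga and Sprr1a are named after their values were seen.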

How the data were processed

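Total RNA of 3 Hopx-null and 3 wild-type E16.5 lungs was measured on single-channel Affymetrix arrays after poly(T)-primed amplification, per the labels' protocols, which favours 3' ends. RMA and Partek 6.6 are named, with no role or order, per the submitters' processing notes. The deposited values were read as log2 values from their range, since no header states the base. RMA equalises the arrays' distributions, so a shift of most transcripts would not be seen. After 64 control probe sets were left out, 45037 were tested in limma 3.58.1 (R 4.3.3, lmFit and eBayes, Benjamini-Hochberg). Simulated data with 45037 probe sets and 3 samples per group were put through these steps. Log2 differences of 0.5, 1 and 2 were then called in 9.6%, 56.4% and 86.0% of cases. Recovery is not given separately for probe sets as variable as those of Scgb3a1, Bpifa1, Muc5b and Agr2. Their pooled SDs reached 1.67 to 2.46 with 1 probe set a gene, against a median of 0.16 over all probe sets. The shares therefore do not tell how often a change in these genes would be called. In the platform annotation 34945 probe sets had 1 gene, 932 had several and 9160 had none. A gene in a list stands for its probe set with the highest mean. At most 0.313% of values were identical between any pair of arrays. The number of arrays limits the precision.

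The members and lists were chosen with earlier results of these data known. Named were all members, the 2 genes of largest difference above the median level in each list of airway cell types, and, for members with a range above 1, the 5 nearest profiles. Alternatives were array weights, trend and robust options, repeated quantile normalization, leaving out dim probe sets, a block for the replicate number, Y-linked signal as a covariate, all probe sets of a gene and each lung left out.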

Additional observations from a re-analysis of the deposited data

How the results depend on the processing

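No secretory airway probe set was called by limma under any of the alternatives run. Of 119 member differences under 12 alternatives, 104 kept their direction and 15 did not, none of them called in either form. With Y-linked signal as a covariate, which in effect sets the Hopx-null lungs against wild-type replicate 1, the differences were 1.93 and 0.91 for Agr2 (first and second probe set), 1.60 for Bpifa1, 1.47 for Muc5b, 1.59 for Scgb3a1, 0.14 for Scgb3a2, 0.0183 for Scgb1a1 and -0.0219 for Cyp2f2, all in the other direction, while Pon1 (-0.57) and Cbr2 (0.04) kept theirs, and the median of the 9 genes was 0.14. Array weights gave -0.0144 for Cyp2f2, and repeated quantile normalization gave 0.014 for Scgb1a1. With 1 lung left out at a time, the ranges were -2.32 to 0.13 for Bpifa1, -0.065 to 0.0584 for Cyp2f2, -0.0344 to 0.0028 for Scgb1a1, -1.86 to 0.0093 for Scgb3a1 and -0.406 to -0.0118 for the median. The calls over all probe sets numbered 2, between 1 and 23 with 1 lung left out (12 without Hopx-null replicate 1, 23 without wild-type replicate 1), and 1 with the Y-linked covariate; the cause was not tested. With the replicate number as a block, 1 probe set in all and 0 member probe sets were called and the median stayed at -0.38. The median was -0.23 with dim probe sets left out, which dropped Bpifa1, and -0.55 with all probe sets of a gene. No pairing of the lungs by replicate number was seen: deviations of same-numbered lungs correlated at -0.10, -0.12 and 0.18, and 2 of 6 lungs correlated best with their own number. With 3 lungs a group, these values cannot exclude a pairing. Signal near background limits Bpifa1, and signal near the top of the arrays limits Scgb1a1. The same limit holds for Scgb3a2 and Cbr2, with means of 13.64 and 13.26 over the 6 lungs.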

Other observations

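Further genes of the companion lists were highest in wild-type replicates 2 and 3. They were picked after their values were seen and are given as values only. Gp2, a glycoprotein of pancreatic zymogen granules and of M cells, read 3.13, 2.83 and 3.88 in Hopx-null lungs, against 3.10, 7.02 and 6.50 in wild-type lungs. Tff2, a trefoil peptide of mucus-secreting epithelia, read 5.27, 5.06 and 4.78 in Hopx-null lungs, against 5.11, 7.16 and 6.80 in wild-type lungs. Lypd2 read 9.97, 9.56 and 10.36 in Hopx-null lungs, against 9.47, 10.78 and 10.73 in wild-type lungs. In the order of the other 4 lungs, Lypd2 matched Agr2, whereas Gp2 was lowest in Hopx-null replicate 2 and Tff2 in Hopx-null replicate 3. None of the 3 passed (limma eBayes, Benjamini-Hochberg adjusted p = 0.878 for Gp2 and Tff2 and 0.9 for Lypd2).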
